A study of Mus musculus with 24 samples.

Results

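A set of 10 genes that the Ras-ERK pathway is known to switch on or that restrain it were followed across the 6 groups of the study. They are the Sprouty genes Spry1, Spry2 and Spry4, the Spred genes Spred1, Spred2 and Spred3, the Pea3-type ETS transcription factor genes Etv1, Etv4 and Etv5, and Lrig1. They were picked by symbol, with earlier results of these data known, and make up 10 of the 45792 genes in the count table. All 10 had enough counts to be among the 16777 genes tested. Messenger RNA was sequenced in primary cortical neurons that came from E16.5 mouse embryos and were kept 12 days in culture. KO cultures carried H2BE-KO/mCherry-KI, in which the gene of the histone H2B variant H2BE is knocked out and an mCherry reporter is knocked in, and WT cultures were wild type. Each genotype had 4 libraries without BDNF (control), 4 after BDNF for 30 min and 4 after BDNF for 24 h, where BDNF is brain-derived neurotrophic factor, the ligand of the receptor kinase TrkB. All groups share the tissue, the embryonic stage and the time in culture, and the sources used here do not say whether a culture came from 1 embryo or from several. The study's title asks whether H2BE controls gene expression that depends on neuronal activity.

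TrkB, once bound by BDNF, passes a signal through the GTPase Ras and the kinases Raf and MEK to the kinase ERK. ERK signalling raises the transcription of Sprouty, Spred and Pea3-type Etv genes, and Sprouty and Spred proteins then restrain Ras and Raf, which closes a feedback loop. Lrig1 is a transmembrane protein that promotes the removal of receptor kinases from the cell surface. The repressor Capicua, encoded by Cic, holds Etv genes down until ERK signalling removes it.

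Promoter windows from RefSeq on the GRCm38.p6 build, 250 bases before and 50 after a start site, were found for 8 of the 10 genes (10 windows). They were searched on both strands for the Capicua octamers TGAATGAA, TGAATGGA, TCAATGAA and TCAATGGA, the ETS site CCGGAAG, the AP-1 site TGANTCA, the cAMP response element TGACGTCA and its core TGACGT, the EGR site GCGTGGGCG and the CArG box. The core lies inside the full element, and TCAATGAA and TCAATGGA were added after the windows had been seen. Only 3 of the 8 genes had a match. The window of Spred3 held TGAATGAA, whose first base is 10 bases before the start site, and 1.3% of all 32851 windows hold this octamer. The window of Spry2 held TCAATGAA on the opposite strand, beginning 54 bases before the start site, against 0.75% of all windows. The window of Spred2 held the core on the opposite strand as ACGTCA, 52 bases before the start site, against 7.51% of all windows. Shares of all windows with the motifs that none of the 10 windows held were 1.21% for TGAATGGA, 0.67% for TCAATGGA, 8.86% for CCGGAAG, 7.81% for TGANTCA, 1.79% for TGACGTCA, 0.61% for GCGTGGGCG and 1.63% for the CArG box. The 250 bases before the start site are shown for Spred3 and Spry2, which hold an octamer, and for the first of 2 windows of Etv1, which holds no match and whose gene moved apart from the others. Capitals mark the octamers, and no exon of GENCODE M21 covers these bases.
Spred3, chr7:29168648-29168897, minus strand: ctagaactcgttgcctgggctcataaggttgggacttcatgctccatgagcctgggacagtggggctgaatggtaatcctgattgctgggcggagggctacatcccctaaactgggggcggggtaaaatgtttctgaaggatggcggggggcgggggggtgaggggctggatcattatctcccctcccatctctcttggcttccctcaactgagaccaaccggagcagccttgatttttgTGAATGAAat
Spry2, chr14:105896820-105897069, minus strand: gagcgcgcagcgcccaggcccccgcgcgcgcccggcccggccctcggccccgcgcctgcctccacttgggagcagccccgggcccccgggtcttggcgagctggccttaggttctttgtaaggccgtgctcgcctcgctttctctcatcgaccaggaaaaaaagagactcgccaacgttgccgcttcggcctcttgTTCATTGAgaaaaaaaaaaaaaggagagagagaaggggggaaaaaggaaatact
Etv1, chr12:38779832-38780081, plus strand: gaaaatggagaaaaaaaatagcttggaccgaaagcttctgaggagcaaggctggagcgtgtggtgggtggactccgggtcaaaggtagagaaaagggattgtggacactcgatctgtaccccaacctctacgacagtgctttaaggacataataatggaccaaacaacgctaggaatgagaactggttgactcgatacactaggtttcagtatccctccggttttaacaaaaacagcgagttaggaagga
A match of letters is a description of the window and not a measured binding site.

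Levels below are CPM (counts scaled to library size, with TMM factors), changes are log2 fold changes ± SE, and adjusted p-values are those of the quasi-likelihood test in edgeR, with Benjamini-Hochberg adjustment over all 16777 genes. A gene is said to have risen or fallen where the adjusted p is under 0.05. The libraries held 19780486 to 62135270 counts. The list of 10 neuron markers summed to 6251 to 8336 CPM in every library, while 7 microglia and 5 endothelial markers each summed to at most 5.15 CPM. Over all libraries, 10 astrocyte markers summed to 184.9 to 640.5 CPM and 7 fibroblast and mural markers to 33.6 to 147.3 CPM. The 9 oligodendrocyte lineage markers summed to 23.3 to 89.9 CPM and 7 neural progenitor markers to 16.9 to 51.1 CPM. The targeted gene Hist2h2be was counted at 21.2 to 63.1 CPM in KO libraries and at 3.15 to 5.83 CPM in WT libraries, and these counts do not check the deletion, since the sources used here do not say which part of the gene is kept. The library labelled KO 24 h replicate 4 stood apart with the lowest Hist2h2be level of the KO libraries, with reads of both Xist (144.7 CPM) and the Y-linked Ddx3y (66.3 CPM), and with deep-layer neuron markers summing to 434.9 CPM against 224.9 to 250.4 CPM in the other KO 24 h libraries. The control and 30 min libraries with the same culture code had Xist at 422.8 and 425.8 CPM and Ddx3y at 0.193 and 0.904 CPM, which goes against a common origin with that library. In the 3 libraries of this code, called KO culture 4 after the labels, mitochondrially encoded genes took 18.5% of the counts in control, 21.7% at 30 min and 10.9% at 24 h, against 4.18% to 9.34% elsewhere. KO 30 min replicate 3 had the fewest counts. The counts of genes called that rest on these 4 doubted libraries, the 3 of KO culture 4 and KO 30 min replicate 3, are also given without them.

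Per transcript length, Spry2, Spred2 and Etv5 were the most abundant members of their families in every group. In TPM (counts divided by exon length, then scaled to the same total in each library), Spry2 averaged 237 ± 47.2 in KO neurons at 24 h and 268.4 ± 50 in WT neurons at 24 h (SD, n = 4 each), and 141.5 ± 55.6 in KO control and 100 ± 32.7 in WT control. It made up 79.2% to 81.9% of the summed TPM of the 3 Sprouty genes followed here in all 6 groups. Of these 3, Spry4 was next at 11.9% to 15.3% and Spry1 last at 2.79% to 8.31%. Spry3, which is outside the set and this sum, averaged 10.3 to 16.6 TPM, above Spry1 in the WT groups and below it in the KO groups. The shares of the Spred family moved at 24 h. Spred3, which stood at 37.1% ± 0.668 of that sum in KO neurons at 24 h against 32.9% ± 2.24 in KO control, stood at 33.0% ± 1.91 in WT neurons at 24 h against 21.9% ± 5.16 in WT control. In the Pea3-type family the genotypes differed before BDNF: Etv1 took 3.43% ± 0.419 of the sum in KO control and 19% ± 4.25 in WT control. At 24 h its share was 4.04% ± 0.692 in KO neurons and 4.35% ± 0.47 in WT neurons, while Etv5 took 93.1% ± 1.33 in KO and 91.2% ± 1.44 in WT. TPM are not scaled by TMM factors, and mitochondrial genes took a larger share of the counts in KO culture 4. Spry2 in KO control stood at 64.0 TPM in replicate 4, of that culture, against 143.1 to 192.9 TPM in the other libraries. It was lowest in replicate 4 in CPM too. In KO neurons at 24 h replicate 3 was lowest, at 195.9 TPM, next to 200.6 TPM in replicate 4. How far the missing factors lower the KO means was not tested. In CPM with TMM factors, Spry2 averaged 136.3 in KO neurons at 24 h and 138.7 in WT neurons at 24 h. Spred1 averaged 65.9 CPM in KO control and 60.9 CPM in WT control, but 32.9 and 34.9 TPM. Levels in TPM are therefore not a comparison of the genotypes.

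**Figure D1:**
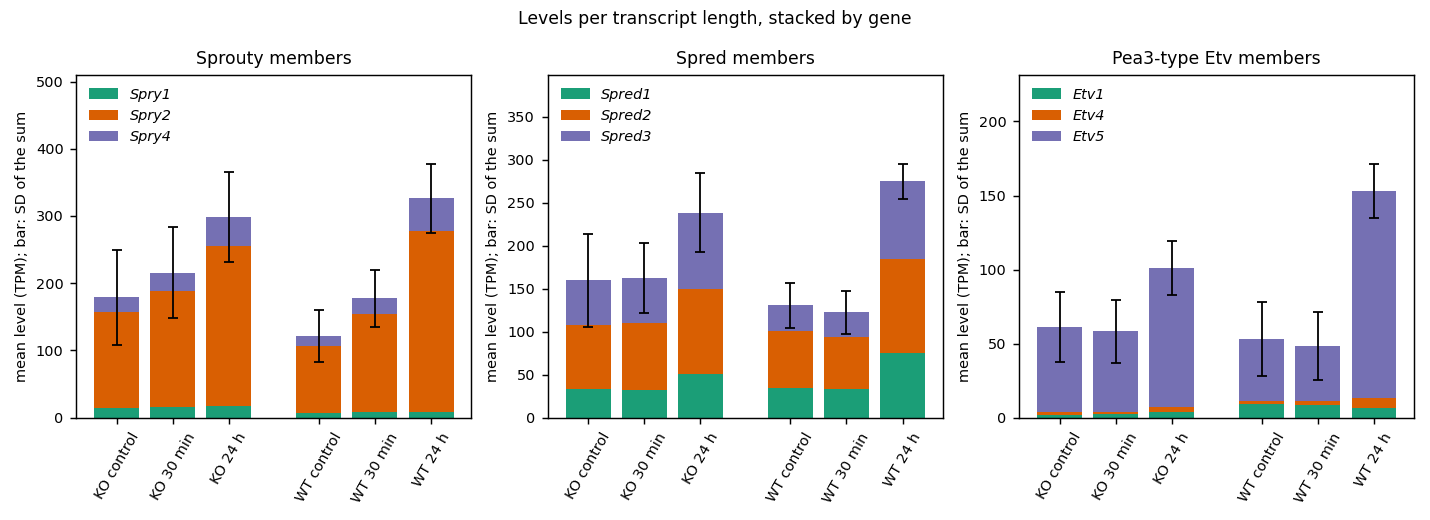
Mean TPM of the 3 Sprouty, 3 Spred and 3 Pea3-type Etv genes, stacked, in the 6 groups (x axis: KO then WT, each as control, BDNF 30 min and BDNF 24 h; y axis: TPM; black bars: SD of the summed level, n = 4). The summed Pea3-type level reached 101.1 TPM in KO and 153.1 TPM in WT at 24 h, against 60.9 TPM in KO control and 53.3 TPM in WT control. The lowest Etv5 level was in replicate 4 in KO control (27.8 TPM) and in replicate 3 in KO at 24 h (75.2 TPM). TPM carry no TMM factors.

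BDNF for 24 h raised Spry4, Spred1 and Lrig1 in both genotypes, Etv1 in KO neurons, and Spry2, Spred2, Spred3, Etv4 and Etv5 in WT neurons. In KO neurons 4 of the 10 rose and 0 fell, while 2.91% of all genes tested rose and 2.7% fell. In WT neurons 8 of the 10 rose, all but Spry1 and Etv1, and 0 fell, while 9.55% of all genes rose and 9.13% fell. All 8 WT calls held in each fit that left out 1 library. In the 2 WT cultures whose library names follow the second of 2 naming styles, only Spry4 and Spred1 kept theirs. That fit also held the KO cultures of that style, and its share of all genes is not given here. With the culture as a block, which compares each BDNF library with the control that shares its culture code, 9 of the 10 rose in KO neurons (background 8.3%), all but Spry1. The median log2 change of the 10 was 0.67 in KO and 1.31 in WT, against −0.03 and −0.01 over all genes. The block ties KO 24 h replicate 4 to a control that its Ddx3y level goes against. Without the 4 doubted libraries, the rises in KO neurons were those of Spry4 and Lrig1 alone (background 4.6%), and 7 rose with the block (background 12.7%), where Etv4 (0.67 ± 0.28, adjusted p = 0.0945) and Etv5 (0.5 ± 0.2, adjusted p = 0.0822) no longer passed.

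**Figure D2:**
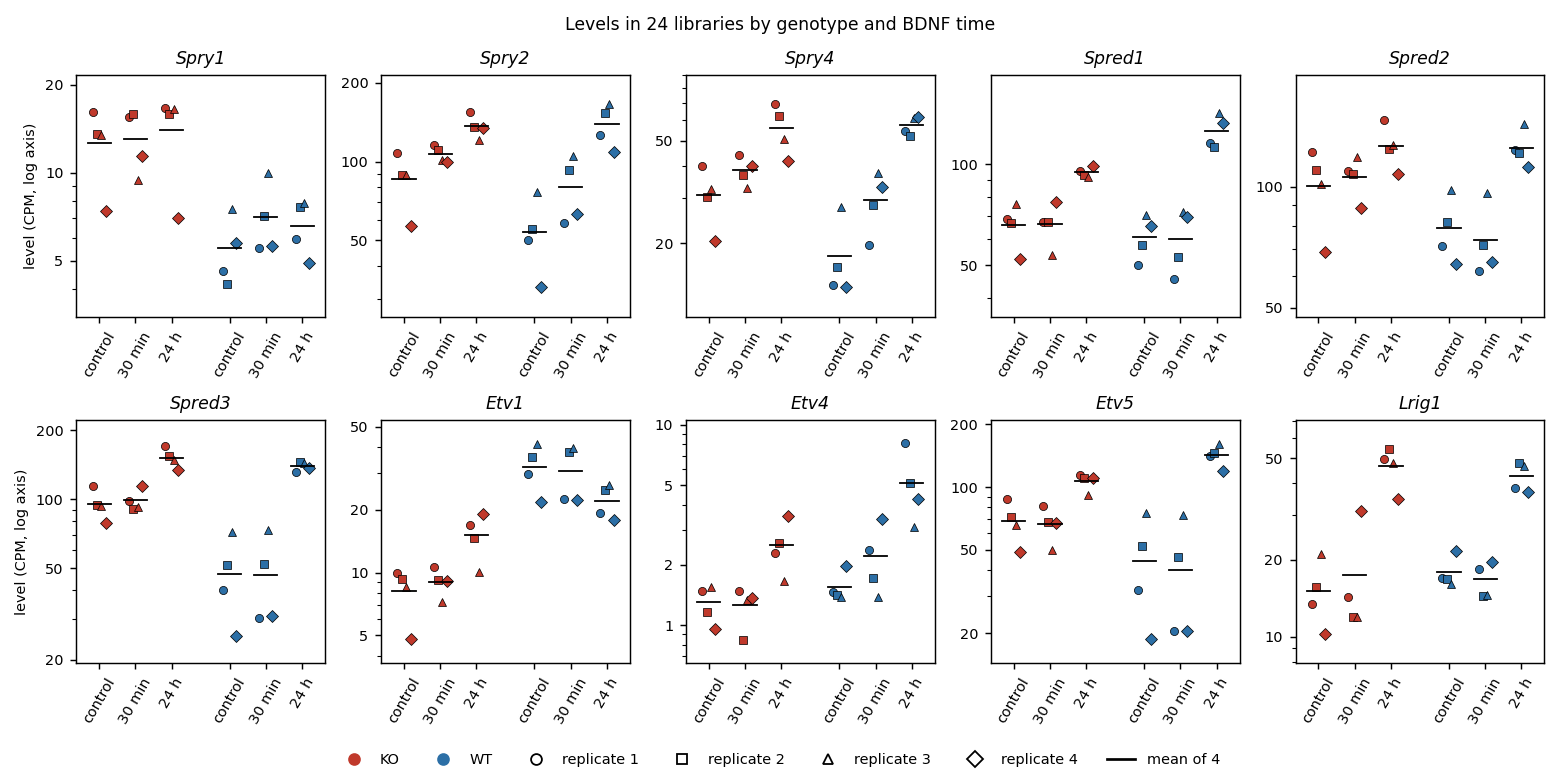
Level of each gene in all 24 libraries (y axis: CPM, log axis; x axis: KO then WT, each as control, BDNF 30 min and BDNF 24 h). Points are libraries, with 1 marker shape per replicate number, and lines are means of 4. At 24 h the KO and WT points of Spred3 lie at 134.4 to 169.6 CPM and 131.5 to 145.7 CPM, above every control point of their genotype.

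Among the Sprouty genes, whose products restrain Ras-ERK signalling downstream of receptor kinases, Spry2 and Spry4 responded and Spry1 showed no change that passed the test. Spry4 (ENSMUSG00000024427.6, chromosome 18 from 38586247 to 38601415 in mm10, minus strand) stood at 69.5, 62.2, 50.9 and 41.8 CPM in KO neurons at 24 h, against 39.9, 30.4, 32.6 and 20.4 CPM in KO control. In WT neurons it stood at 54.5, 52.1, 61.5 and 62.1 CPM at 24 h, against 13.8, 16.2, 27.7 and 13.5 CPM in WT control. All 24 h libraries lay above all control libraries in both genotypes, and the groups of the genotypes overlapped at 24 h. The change was 0.86 ± 0.22 in KO (adjusted p = 0.0247) and 1.69 ± 0.23 in WT (adjusted p = 1.61e-05). The KO call rests on single libraries: leaving out KO 24 h replicate 1 or 2, or KO control replicate 2, 3 or 4, gave adjusted p between 0.0504 and 0.102.

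Spry2 (ENSMUSG00000022114.4, chromosome 14 from 105891947 to 105896819, minus strand) stood at 154, 136, 121 and 134 CPM in KO neurons at 24 h, against 108, 88.8, 89.0 and 57.0 CPM in KO control. The WT neurons had 126, 154, 165.5 and 109 CPM at 24 h, against 50.1, 55.4, 76.6 and 33.2 CPM in WT control. The 24 h libraries lay above the control libraries in both genotypes. The KO change, 0.67 ± 0.21, missed the threshold (adjusted p = 0.0699) and passed it with the culture block (0.69 ± 0.12, adjusted p = 0.000463). The rise in WT was 1.37 ± 0.22 (adjusted p = 0.00011). Spry1 (ENSMUSG00000037211.10, chromosome 3 from 37639947 to 37644598, plus strand) averaged 14 ± 4.71 CPM in KO neurons at 24 h against 12.7 ± 3.7 in KO control, and 6.59 ± 1.4 CPM in WT neurons at 24 h against 5.52 ± 1.5 in WT control (SD, n = 4 each). Its 24 h and control libraries overlapped in both genotypes. Spry1 shares 710 exon bases with the predicted gene Gm42922 on the opposite strand, which held 87 counts over all libraries against 10235 for Spry1.

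The Spred genes encode membrane-bound relatives of Sprouty that bring neurofibromin, an inactivator of Ras, to the plasma membrane. At 24 h Spred1 rose in KO neurons, and all 3 rose in WT neurons. Spred3 (ENSMUSG00000037239.7, chromosome 7 from 29158829 to 29170411, minus strand) stood at 169.6, 154, 148 and 134 CPM in KO neurons at 24 h, against 114, 94.2, 93.8 and 78.5 CPM in KO control. In WT neurons it stood at 131.5, 146, 144 and 136 CPM at 24 h, against 40.1, 51.8, 71.7 and 25.2 CPM in WT control. The 24 h libraries of the genotypes overlapped, whereas every KO control library lay above every WT control library. The KO change of 0.67 ± 0.24 missed the threshold (adjusted p = 0.117) and passed it with the culture block (0.67 ± 0.16, adjusted p = 0.00719). In WT neurons Spred3 rose by 1.56 ± 0.25 (adjusted p = 0.000111). It shares 202 exon bases with Ggn on the opposite strand, which held 1600 counts over all libraries against 98528 for Spred3.

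Spred1 (ENSMUSG00000027351.12, chromosome 2 from 117121374 to 117182279, plus strand) stood at 95.7, 92.8, 91.8 and 98.6 CPM in KO neurons at 24 h, against 68.7, 66.7, 76.0 and 52.4 CPM in KO control. In WT neurons it stood at 116, 112, 142 and 133 CPM at 24 h, against 50.2, 57.4, 70.6 and 65.5 CPM in WT control. All KO 24 h libraries lay below all WT 24 h libraries, and both lay above their controls. The difference of KO from WT at 24 h, −0.41 ± 0.14, did not pass the test (adjusted p = 0.0578). The rise was 0.52 ± 0.14 in KO (adjusted p = 0.0323) and 1.05 ± 0.14 in WT (adjusted p = 1.86e-05). Leaving out any 1 of 7 of the 8 KO libraries compared, all but KO control replicate 3, ended the KO call (adjusted p 0.0515 to 0.112). Spred2 (ENSMUSG00000045671.15, chromosome 11 from 19924375 to 20024026, plus strand) ranged over 107.4 to 146.0 CPM in KO neurons at 24 h against 68.8 to 121.6 CPM in KO control, and over 112.1 to 142.8 CPM in WT neurons at 24 h against 64.2 to 98.3 CPM in WT control. In KO neurons its libraries overlapped and its change passed the test only with the culture block (0.34 ± 0.08, adjusted p = 0.00645). Its rise in WT, 0.66 ± 0.16 (adjusted p = 0.00547), was the smallest of the 8.

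The Pea3-type genes encode ETS transcription factors that act downstream of ERK in developing tissues, and Etv1 also marks layer 5 neurons of the cortex. At 24 h Etv1 rose in KO neurons and was below control in every WT culture, and Etv5 and Etv4 rose in WT neurons. Etv5 (ENSMUSG00000013089.13, chromosome 16 from 22381309 to 22439719, minus strand) stood at 114, 110.0, 91.5 and 110.3 CPM in KO neurons at 24 h, against 87.6, 72.0, 65.7 and 48.8 CPM in KO control. The WT neurons had 141, 146, 160.4 and 119.9 CPM at 24 h, against 32.1, 52.1, 74.9 and 18.8 CPM in WT control. No 24 h library fell into the range of its controls, and every WT 24 h library lay above every KO 24 h library. The difference of KO from WT at 24 h, −0.41 ± 0.34, did not pass the test (adjusted p = 0.492). The KO change of 0.63 ± 0.34 missed the threshold (adjusted p = 0.337) and passed it with the culture block (0.65 ± 0.2, adjusted p = 0.03). The rise was 1.67 ± 0.35 in WT (adjusted p = 0.0016).

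Etv4 (ENSMUSG00000017724.12, chromosome 11 from 101769742 to 101785371, minus strand) had the lowest mean CPM of the 10 in every group. It stood at 2.30, 2.58, 1.67 and 3.52 CPM in KO neurons at 24 h, against 1.49, 1.17, 1.56 and 0.963 CPM in KO control. The WT neurons had 8.10, 5.10, 3.08 and 4.28 CPM at 24 h, against 1.47, 1.41, 1.39 and 1.98 CPM in WT control. Both 24 h groups lay above their controls, and the KO and WT groups at 24 h overlapped through KO replicate 4 and WT replicate 3. The KO change of 0.95 ± 0.31 missed the threshold (adjusted p = 0.0776) and passed it with the culture block (0.93 ± 0.29, adjusted p = 0.0321). Etv4 rose by 1.71 ± 0.31 in WT (adjusted p = 0.00043).

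Etv1 (ENSMUSG00000004151.14, chromosome 12 from 38779380 to 38870484, plus strand) stood at 17.0, 14.6, 10.1 and 19 CPM in KO neurons at 24 h, against 9.95, 9.36, 8.53 and 4.81 CPM in KO control. In WT neurons it stood at 19.3, 24.8, 26.2 and 17.8 CPM at 24 h, against 29.6, 35.8, 41.3 and 21.7 CPM in WT control. The KO groups did not overlap, and the WT groups did. Etv1 rose by 0.88 ± 0.25 in KO (adjusted p = 0.0356). In WT the change of −0.54 ± 0.24 missed the threshold (adjusted p = 0.125), and with the culture block Etv1 fell by 0.52 ± 0.16 on the log2 scale (adjusted p = 0.016). The KO call ended when any 1 of 6 of the 8 libraries was left out, all but KO 24 h replicate 3 and KO control replicate 1 (adjusted p 0.057 to 0.116). Without the 4 doubted libraries the change was 0.59 ± 0.25 (adjusted p = 0.162). The 8 deep-layer neuron markers summed to 224.9 to 434.9 CPM in KO neurons at 24 h against 234.0 to 339.9 CPM in KO control, with the highest sum in KO 24 h replicate 4, where Etv1 was also highest. In WT they summed to 385.4 to 577.9 CPM at 24 h against 542.0 to 699.8 CPM in control, and 2 of 8 fell. Their part in the Etv1 changes was not tested.

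Lrig1 (ENSMUSG00000030029.12, chromosome 6 from 94604529 to 94700158, minus strand) rose at 24 h in both genotypes. It stood at 49.6, 54.1, 47.7 and 34.5 CPM in KO neurons at 24 h, against 13.4, 15.7, 21.1 and 10.3 CPM in KO control. In WT neurons it stood at 38.2, 47.9, 46.7 and 37.0 CPM at 24 h, against 17.0, 16.9, 16.1 and 21.6 CPM in WT control. Each 24 h group lay above its control group, and the genotypes overlapped at both times. The rise was 1.62 ± 0.25 in KO (adjusted p = 0.000632), 3.07-fold, and 1.24 ± 0.25 in WT (adjusted p = 0.000966), 2.37-fold. Both calls held in every fit that left out 1 library. Lrig1 shares 144 exon bases with Slc25a26 on the opposite strand, which held 7086 counts over all libraries against 26701 for Lrig1, and without the strand setting of the counting, which the sources used here do not give, reads from these bases cannot be assigned to either gene with certainty.

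At 30 min of BDNF none of the 10 genes passed the test in either genotype, with a background of 0.125% of all genes changed in KO and 0.37% in WT. At an unadjusted p under 0.05, for which no share of all genes is given here, 0 of the 10 differed in KO and 2 in WT. DESeq2 called 0 in both. Without the doubted libraries the KO count was also 0, with or without the culture block. The 2 genes in WT were Spry2 and Spry4. Spry4 stood at 19.8, 28.3, 37.4 and 33.0 CPM in WT neurons at 30 min, against 13.8, 16.2, 27.7 and 13.5 CPM in WT control. It was higher in all 4 WT cultures, by 0.43 to 1.29 on the log2 scale, although the groups overlapped. Its change was 0.73 ± 0.22 (adjusted p = 0.553), and that of Spry2 was 0.57 ± 0.21 (adjusted p = 1). With the culture block both rose in WT (background 0.584%), Spry2 by 0.58 ± 0.12 (adjusted p = 0.0155) and Spry4 by 0.75 ± 0.15 (adjusted p = 0.0215). Without WT control replicate 3 the unblocked change of Spry4 also passed (adjusted p = 0.0213). The difference between the genotypes in the 30 min response passed the test for none of the 10 (0.0477% of all genes did), where 0 of the 10 had an unadjusted p under 0.05 and DESeq2 called 0.

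Most of the 24 h levels also stood above the 30 min levels. In KO neurons 1 of the 10, Lrig1, was higher at 24 h than at 30 min (background 1.24%), by 1.43 ± 0.25 (adjusted p = 0.00373). With the culture block 7 were (background 5.41%), Spry4, Spred1, Spred3, Etv1, Etv4, Etv5 and Lrig1. Lrig1 alone was higher without the 4 doubted libraries (1.95 ± 0.19, adjusted p = 6.48e-06, background 3.01%), and with the block 8 were (background 9.81%), all but Spry1 and Etv5. Leaving out KO 30 min replicate 4, where Lrig1 was highest, brought Spred1 past the threshold as well (adjusted p = 0.0201). In WT neurons 8 of the 10 were higher at 24 h than at 30 min (background 7.91%), namely Spry2, Spry4, Spred1, Spred2, Spred3, Etv4, Etv5 and Lrig1. Etv5 stood at 141, 146, 160.4 and 119.9 CPM at 24 h, against 20.4, 46.2, 73.4 and 20.5 CPM at 30 min, a change of 1.82 ± 0.35 (adjusted p = 0.000902). Of the 8, Spry2 differed least between these times relative to its SE (0.8 ± 0.21, adjusted p = 0.012), and its call ended without WT 24 h replicate 3 or WT 30 min replicate 1 or 4 (adjusted p 0.052 to 0.054). The call of Etv4 (1.21 ± 0.31, adjusted p = 0.00776) ended without WT 24 h replicate 1 (adjusted p = 0.0542).

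**Figure D3:**
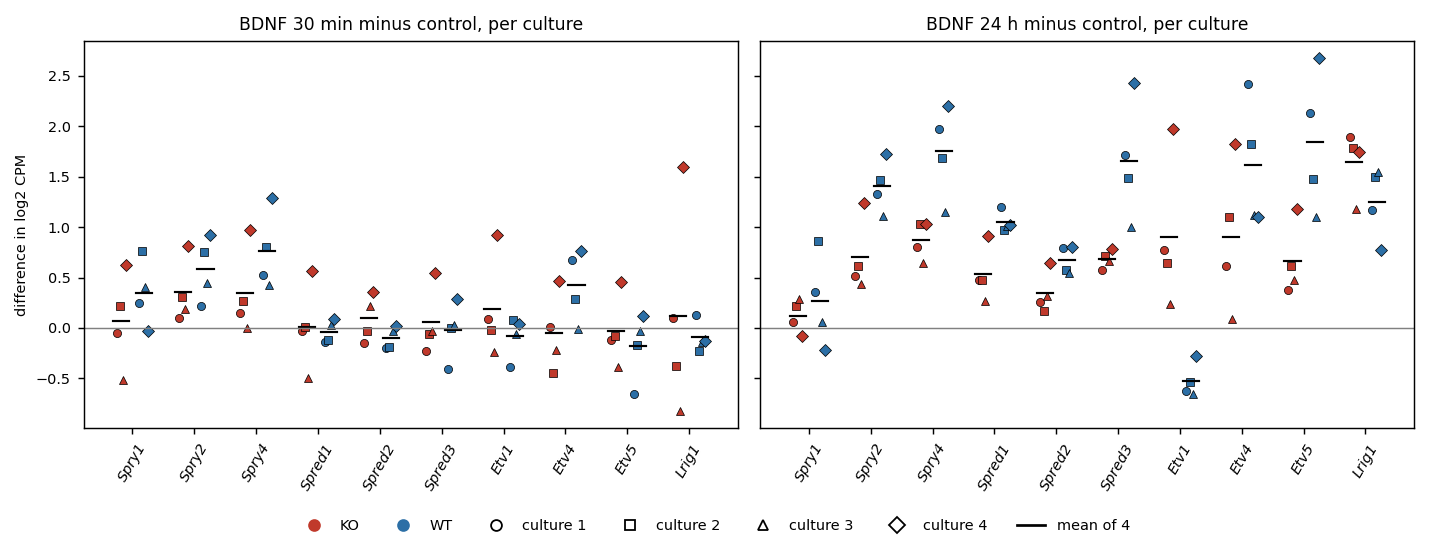
Log2 CPM of the BDNF library minus that of the control library with the same culture code, at 30 min (left) and 24 h (right). Each gene (x axis) is shown for 4 KO and 4 WT cultures (y axis: difference in log2 CPM, points with 1 shape per culture number, lines at the mean of 4). At 24 h the Etv1 differences lie between 0.24 and 1.97 in KO cultures and between −0.65 and −0.28 in WT cultures.

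Before any BDNF, KO neurons held more Sprouty and Spred3 messenger RNA and less Etv1 than WT neurons. In control cultures 4 of the 10 were higher in KO (11.3% of all genes were) and 1 was lower (10.1% were). Spry1 stood at 16.1, 13.6, 13.5 and 7.41 CPM in KO control, against 4.63, 4.18, 7.54 and 5.74 CPM in WT control. The lowest KO library, of culture 4, fell just under the highest WT library. Spry1 was higher in KO by 1.2 ± 0.28 (adjusted p = 0.00357) and Spred3 by 1.01 ± 0.25 (adjusted p = 0.00466). Spry4 was higher by 0.79 ± 0.23 (adjusted p = 0.0139) and Spry2 by 0.67 ± 0.21 (adjusted p = 0.0274), with overlapping groups. Etv1 was lower by 1.96 ± 0.25 on the log2 scale (adjusted p = 1.2e-05), and its 4 KO levels, given above, all lay below the lowest WT level. Among the cultures of the second naming style, KO replicates 2, 3 and 4 and WT replicates 3 and 4, Etv1 alone passed the test, with a difference of −2.06 ± 0.35 (adjusted p = 0.0106), while Spry1 (0.78 ± 0.41, adjusted p = 0.346) and Spred3 (0.86 ± 0.36, adjusted p = 0.234) did not. The first style holds 1 KO culture only and was not compared alone. With the naming style as a term in the fit of all libraries, Spry1 (1.21 ± 0.29), Spred3 (1.01 ± 0.25) and Etv1 (−1.94 ± 0.25) kept their calls. In bulk libraries such as these, fewer cells of a type and less RNA per cell cannot be told apart.

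The Spry2 call ended when KO control replicate 1, 2 or 3 or WT control replicate 1, 2 or 4 was left out (adjusted p 0.0541 to 0.122), and the Spry4 call without KO control replicate 1 or WT control replicate 1 or 4 (adjusted p 0.0553 to 0.0735). KO control replicate 4 was the lowest KO control library for all 10 genes, and without the 4 doubted libraries, Spred2 joined the 4 higher genes (background 15.6%). Marker genes differed between the genotypes as well. Deep-layer neuron markers summed to 234.0 to 339.9 CPM in KO control and 542.0 to 699.8 CPM in WT control, and 6 of 8 were lower in KO, among them Tbr1 by 1.88 ± 0.3 and Fezf2 by 1.08 ± 0.3 on the log2 scale. Of the 10 neuron markers 3 were higher in KO, the inhibitory neuron genes Gad1, Gad2 and Slc32a1, and 3 were lower, Rbfox3, Tubb3 and the excitatory neuron gene Slc17a7. Astrocyte markers summed to 184.9 to 326.8 CPM in KO control and 461.8 to 632.4 CPM in WT control, with 2 of 10 lower. Slc1a2 alone made up most of these sums, with means of 248.2 CPM in KO control and 470.2 CPM in WT control. Only Sox9 had a higher mean in KO control (3.91 CPM) than in WT control (2.48 CPM). No deep-layer marker was at 0 in any of these libraries, while the astrocyte marker Gfap reached at most 1.6 CPM in KO control, with 0.0 in the lowest library, and at most 5.76 CPM in WT control. The part of these markers in the genotype differences of the 10 genes was not tested.

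The genotypes were also compared after BDNF. At 30 min 3 of the 10 were higher in KO (14.6% of all genes were) and 1 was lower (13.8% were). Spry1 stood at 15.5, 15.9, 9.48 and 11.4 CPM in KO against 5.53, 7.10, 10 and 5.63 CPM in WT, a difference of 0.89 ± 0.28 (adjusted p = 0.0191). Spred3 stood at 97.7, 90.5, 92.1 and 114.5 CPM in KO against 30.2, 51.9, 73.1 and 30.9 CPM in WT, without overlap (1.08 ± 0.25, adjusted p = 0.00211). Spred2 was higher in KO by 0.52 ± 0.16 (adjusted p = 0.0183) and Etv1 lower by 1.75 ± 0.25 on the log2 scale (adjusted p = 2.28e-05). These 4 genes kept their calls without the 4 doubted libraries (background 13.9% higher and 13.5% lower). Deep-layer markers summed to 227.1 to 346.7 CPM in KO and 505.3 to 688.3 CPM in WT at 30 min, with 6 of 8 lower in KO. Astrocyte markers summed to 225.8 to 295.7 CPM in KO and 455.8 to 640.5 CPM in WT, with 7 of 10 lower. Slc1a2 again made up most of the astrocyte sums, with means of 236.2 CPM in KO and 445.4 CPM in WT. The part of these markers in the differences at 30 min was not tested. The Spry1 call ended without KO 30 min replicate 1 or 2 or WT 30 min replicate 1 or 4 (adjusted p 0.0627 to 0.0723), and the Spred2 call without KO 30 min replicate 1 or 3 or WT 30 min replicate 1, 2 or 4 (adjusted p 0.0519 to 0.0778). Without KO 30 min replicate 1, or WT 30 min replicate 2 or 3, Etv4 was lower in KO (adjusted p 0.0276 to 0.0485), and without WT 30 min replicate 3 Etv5 was higher (adjusted p = 0.0114).

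At 24 h only Spry1 was higher in KO (7.09% of all genes were) and only Etv4 was lower (6.16% were). Spry1 stood between 15.9 and 16.7 CPM in 3 KO libraries and at 7.0 CPM in KO replicate 4, against 5.95, 7.63, 7.86 and 4.92 CPM in WT, so that KO replicate 4 lay inside the WT range and the other 3 above it. The difference was 1.09 ± 0.28 (adjusted p = 0.0117). Etv4 was lower in KO by 1.02 ± 0.3 on the log2 scale (adjusted p = 0.0271). At the same time 4 of 8 deep-layer markers and 1 of 10 astrocyte markers were lower in KO, and their part was not tested. Spry2, Spry4 and Spred2 had KO and WT means at 24 h that differed by less than the SD of either group. The Spry1 call ended without KO 24 h replicate 1 (adjusted p = 0.0549), and the Etv4 call without KO 24 h replicate 1, 2 or 3 or WT 24 h replicate 1 or 2 (adjusted p 0.0526 to 0.158). Without the 4 doubted libraries, 3 genes were lower in KO (background 15.5%), Etv4 by 1.22 ± 0.32 (adjusted p = 0.00696), Etv1 by 0.65 ± 0.24 (adjusted p = 0.0415) and Spred1 by 0.42 ± 0.13 (adjusted p = 0.023) on the log2 scale, and Spry1 was higher by 1.32 ± 0.21 (adjusted p = 7.95e-05).

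**Figure D4:**
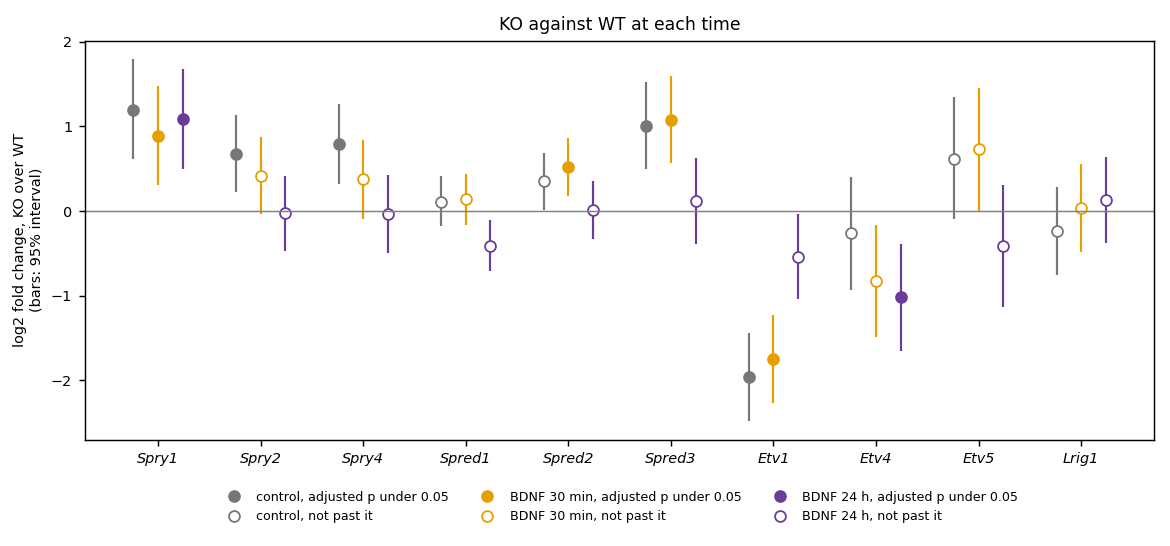
Log2 fold change of KO over WT for each gene (x axis) in control, BDNF 30 min and BDNF 24 h cultures, with 95% intervals (y axis: log2 fold change, filled points: adjusted p under 0.05, open points: not). Spry1 lies above 0 at all 3 times, Spry2, Spry4 and Spred3 lie near 0 at 24 h, and Etv1 lies at −1.96 in control and −0.54 at 24 h.

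Whether the 24 h response itself differed between the genotypes was tested with an interaction contrast, which none of the 10 genes passed (0.0358% of all genes did). At an unadjusted p under 0.05, 6 of the 10 differed, and DESeq2 called 1, Etv1. The share of all genes is given here for the adjusted edgeR test alone, so these 2 counts have no background beside them. The median difference over the 10, KO response minus WT response, was −0.61, against −0.01 over all genes. Etv1 had the largest difference, 1.43 ± 0.34 (adjusted p = 0.189). It was higher at 24 h than in control in 4 of 4 KO cultures, by 0.77, 0.64, 0.24 and 1.97, and lower in 4 of 4 WT cultures, with differences of −0.62, −0.53, −0.65 and −0.28. With the culture block the difference was 1.39 ± 0.23 (adjusted p = 0.00508, background 0.793%), and without the 4 doubted libraries it was 1.14 ± 0.33 (adjusted p = 0.148), or 1.11 ± 0.14 with the block (adjusted p = 4.63e-05, background 3.86%).

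The culture block, which pairs KO 24 h replicate 4 with the control of its code, also gave a smaller 24 h response in KO for 4 of the 10 (background 0.989%). These were Etv5 (−1.23 ± 0.28, adjusted p = 0.0302), Spred3 (−1.0 ± 0.23, adjusted p = 0.0293), Spry4 (−0.88 ± 0.22, adjusted p = 0.0431) and Spry2 (−0.71 ± 0.16, adjusted p = 0.0289). Without the block the differences were −1.04 ± 0.49, −0.89 ± 0.34, −0.83 ± 0.32 and −0.70 ± 0.3 in the same order, with adjusted p between 0.686 and 0.871. Without the 4 doubted libraries the block gave a smaller response in KO for 6 of the 10 (background 4.96%), Etv5 (−1.37 ± 0.27, adjusted p = 0.00341), Spred3 (−1.02 ± 0.22, adjusted p = 0.00567), Spry4 (−0.9 ± 0.19, adjusted p = 0.00407), Spry2 (−0.87 ± 0.13, adjusted p = 0.000221), Spred1 (−0.63 ± 0.09, adjusted p = 0.000138) and Spred2 (−0.41 ± 0.09, adjusted p = 0.00498). Per culture, Etv5 was higher at 24 h by 0.38, 0.61, 0.48 and 1.18 in KO and by 2.13, 1.48, 1.10 and 2.67 in WT, where the largest KO value lay above the smallest WT value. Spred3 was higher by 0.57, 0.71, 0.66 and 0.78 in KO and by 1.71, 1.49, 1.0 and 2.43 in WT, without overlap. For Spred1 the difference was −0.52 ± 0.2 (adjusted p = 0.7) and for Lrig1 0.37 ± 0.35 (adjusted p = 1), with a 95% interval of −0.36 to 1.1 for Lrig1.

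The spread between cultures differed between genes and groups. In WT control, replicate 3 was highest for 8 of the 10 genes and replicate 4 lowest for 6. The coefficient of variation of Etv5 over the KO libraries was 23.5% for control, 18.9% after 30 min and 9.47% after 24 h, and over the WT libraries 55.0%, 63.0% and 11.8% for the same groups. That of Spred3 was 15.4%, 11.1% and 9.64% in KO and 41.6%, 43.8% and 4.71% in WT. Etv4 ran the other way, at 30.7% in KO at 24 h against 21.5% in KO control and at 41.6% in WT at 24 h against 17.8% in WT control, and so did Spry1 in KO, at 33.5% at 24 h against 29.2% in control. The WT cultures lay far apart in Etv5 and Spred3 before BDNF and close together after 24 h. The order of the 4 WT responses of both genes was the reverse of the order of the control levels from which those responses are computed.

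Other genes of the pathway were read from 5 lists, beside shares of all genes of 2.91% higher and 2.7% lower in KO at 24 h, 9.55% higher and 9.13% lower in WT at 24 h, and 11.3% higher and 10.1% lower in KO against WT control. Of 17 other output genes of ERK, 2 rose in KO and 4 in WT at 30 min and 0 fell. At that time 0.125% of all genes changed in KO and 0.37% in WT. The rises were led by Egr1, an immediate early transcription factor (4.22 ± 0.37 in KO, adjusted p = 8.75e-07, and 5.07 ± 0.38 in WT, adjusted p = 5.85e-09), and Dusp6, an ERK phosphatase (0.97 ± 0.19 in KO, adjusted p = 0.0227, and 1.81 ± 0.19 in WT, adjusted p = 1.4e-06). At 24 h, 5 rose and 0 fell in KO, and 8 rose and 2 fell in WT, among them the Eph receptor gene Epha2 (2.5 ± 0.6 in KO, adjusted p = 0.0146, and 3.02 ± 0.61 in WT, adjusted p = 0.00109) and the ERK phosphatase gene Dusp5 (1.1 ± 0.2 in KO, adjusted p = 0.00253, and 2.21 ± 0.21 in WT, adjusted p = 2.09e-07). In control cultures 5 of the 17 were higher in KO and 2 lower, the second near the 10.1% of all genes, with Rgs2, an inhibitor of G-protein signalling, higher by 2.0 ± 0.27 (adjusted p = 2.21e-05) and Il17rd, an inhibitor of FGF receptor signalling, lower by 1.79 ± 0.37 on the log2 scale (adjusted p = 0.00123).

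Of 34 genes of the chain that leads through TrkB, FGF and EGF receptors to ERK and RSK, 2 rose and 2 fell in KO at 24 h (2.91% and 2.7% of all genes did), and 5 rose and 6 fell in WT (9.55% and 9.13% of all genes did). Fgfr1, an FGF receptor, rose in both (0.92 ± 0.25 in KO, adjusted p = 0.0304, and 1.28 ± 0.25 in WT, adjusted p = 0.000787). Bdnf itself ranged over 208.8 to 271.7 CPM in KO control and 28.1 to 96.6 CPM in WT control, higher in KO by 2.01 ± 0.31 (adjusted p = 8.53e-05). Ntrk2, which encodes TrkB, fell by 0.75 ± 0.14 on the log2 scale in WT (adjusted p = 0.000676). Of 22 other inhibitors, 2 rose and 0 fell in KO at 24 h, and 4 rose and 7 fell in WT. The Ras inactivator gene Rasal2 rose in both (0.59 ± 0.12 in KO, adjusted p = 0.00392, and 0.62 ± 0.12 in WT, adjusted p = 0.000535), whereas its relative Rasal1 fell by 1.05 ± 0.24 on the log2 scale in WT (adjusted p = 0.00289). Of 17 tested ETS factors and partners outside the Pea3 type, of 22 listed, 1 rose in KO at 24 h, and 2 rose and 1 fell in WT, with Elk3, an ETS factor, at 1.89 ± 0.37 in KO (adjusted p = 0.00349) and 1.73 ± 0.37 in WT (adjusted p = 0.00163). Cic was lower in KO control than in WT control by 0.43 ± 0.14 on the log2 scale (adjusted p = 0.0262). Of 9 Sprouty partners, 0 changed in KO at 24 h and 1 rose in WT, near the 9.55% of all genes, the ubiquitin ligase gene Siah2 (0.48 ± 0.14, adjusted p = 0.0193).

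The genes whose levels followed each of the 10 most closely over the 24 libraries were found by Pearson's r of log2 CPM among 12080 genes, as a description of libraries that share groups and cultures. Within the set, Spry2 and Spry4 tracked each other (r = 0.932), and Etv5 and Spred3 did (r = 0.944). Beyond it, Spred3 was most like Pde1c (r = 0.972) and Stc2 (r = 0.967), Spry2 most like Usp36 (r = 0.948), and Spry4 most like Stk40 (r = 0.932). Etv5 was next most like Mitf (r = 0.941), and Etv1 most like Adam19 (r = 0.946) and Xpr1 (r = 0.94). Lrig1 was most like Cdyl2 (r = 0.935), Spred1 most like Hmox1 (r = 0.942), Spred2 most like Slit2 (r = 0.953), Spry1 most like Chst11 (r = 0.942) and Etv4 most like Tars (r = 0.922).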

How the data were processed

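For each of 24 libraries the authors deposited raw, unnormalised read counts by gene in a single table. Per the labels' protocols, column-purified RNA went into a stranded poly(A) library kit, and per the submitters' processing notes STAR 2.7.9a, the mm10 build, DESeq2 1.38.3, limma 3.54.2 and edgeR 3.40.2 were used. The sources used here give neither the counting program nor its strand setting. Identifiers without version were named from GENCODE M21 (45229 of 45792). Groups came from the titles and characteristics.

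Counts were fitted with edgeR 4.0.16 in R 4.3.3 (filterByExpr with a minimum count of 10, TMM factors 0.824 to 1.07, 1 mean per group, 18 residual degrees of freedom, biological coefficient of variation 23.5%). Calls used a Benjamini-Hochberg adjusted p under 0.05 over all 16777 genes tested. SE is the log2 fold change over the square root of F, and a prior count of 2 entered log2 CPM. The fit was run on simulated counts of independent libraries without a culture effect, and the outcome is not reported here. The members, lists and tests were chosen with earlier results of these data known. Other pathway genes are named from among those with the largest changes past the threshold at a mean of at least 1 CPM, up to 3 per list at WT 24 h and 2 elsewhere. DESeq2 1.42.0 and the other fits are compared in the closing section.

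The descriptions carry a culture code that joins 3 libraries, 1 per treatment, of 1 genotype. Libraries with the same code deviated together from their group means (r 0.0464 to 0.462, above 0.1 in 22 of 24 pairs), against −0.3 to 0.0903 for 72 other pairs of the same genotype. The code was taken to pair libraries within a genotype, and the blocked values are printed where they change a call. Where nothing says that cultures came from separate animals, p-values measure only the spread between these cultures.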

Additional observations from a re-analysis of the deposited data

Results flagged for a closer look

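Within groups of 4 libraries, 4 of 60 gene and group combinations had 1 library far from the other 3 (gap to its neighbour over the range above Dixon's 95% critical value), where chance gives about 3. Spry1 was lowest in the library labelled KO 24 h replicate 4, at 7.0 CPM. Lrig1 was highest in KO 30 min replicate 4 at 31.2 CPM, which shares only its culture code with that library, and in WT control replicate 4 at 21.6 CPM. Etv4 was highest in WT control replicate 4 at 1.98 CPM.

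The 24 h response of Etv1 differed between the genotypes in direction, upwards in 4 of 4 KO cultures and downwards in 4 of 4 WT cultures. The difference, KO minus WT, was 1.43 on the log2 scale, and its test over all genes gave an adjusted p of 0.189 without a block, 0.00508 with the culture block (edgeR) and 0.0201 with DESeq2. The largest KO value (1.97) came from KO culture 4, whose 24 h and control libraries held Ddx3y at 66.3 and 0.193 CPM. Without the 4 doubted libraries the edgeR test was passed only with the culture block, as given above.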

How the results depend on the processing

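Counts are of the 10 genes called. Shares of all genes are given above for the culture block. They are not given for the second naming style, the compared groups, DESeq2 or the fits without 1 library. A count that moved in those fits cannot be told from a change over all genes. The replicate block by culture gave 2 for WT 30 min against control (0 without it), 9 for KO 24 h against control (4), 7 for KO 24 h against 30 min (1) and 5 for the difference in 24 h response (0). The block by number between genotypes, which share only a number, left no count moved by over 1.5 times. The cultures of the second naming style alone gave 0 for KO 24 h against control (4), 2 for WT 24 h against control (8), 0 for KO 24 h against 30 min (1), 1 for WT 24 h against 30 min (8), and 1 in control (5), 1 at 30 min (4) and 0 at 24 h (2) for KO against WT. They hold 15 of 24 libraries. Without the 4 doubted libraries the counts were 2 for KO 24 h against control and 4 for KO against WT at 24 h. The replicate block without those libraries, added after seeing the data, gave 2 for WT 30 min against control, 7 for KO 24 h against control, 8 for KO 24 h against 30 min and 7 for the difference in 24 h response. With only the compared groups in the fit they were 0 for KO 24 h against 30 min, 3 for KO against WT in control and 4 at 24 h. For KO 24 h against 30 min, DESeq2 gave 3, its size factors in edgeR 2 and no filter 2, and DESeq2 gave 1 for the difference in 24 h response. The cause was not tested. Leaving out 1 library gave 1 to 3 for KO 24 h against control, 1 to 2 for KO 24 h against 30 min, 0 to 1 for WT 30 min against control, 7 to 8 for WT 24 h against 30 min, 3 to 6 in control, 2 to 6 at 30 min and 0 to 2 at 24 h for KO against WT. The Spry1 difference in 24 h response, −0.11, reversed to 0.25 with those cultures alone, 0.11 without KO 24 h replicate 4 and 0.03 without KO control replicate 1, with a range of −0.3 to 0.11 over the fits that left out 1 library. Of the other values of single genes, 960 kept direction and side of the threshold, 80 lost the call and 49 gained it. Etv4, at 0.846 to 8.1 CPM, rests on the fewest counts.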
